A study of Mus musculus with 12 samples.

Results

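The 7 genes described here, Rpe65, Lrat, Rdh5, Rgr, Rrh, Rlbp1 and Ttr, encode enzymes, opsins and carriers that handle vitamin A in the retinal pigment epithelium, the pigmented cell sheet behind the photoreceptors. They were taken by symbol, as all non-control probes that map to these names, and gave 8 probes of 39429 and 7 genes of 32496 on the array. Rrh had a pair of probes and each other gene had 1. All 8 probes passed the filter on dim probes and were well above background in both dyes on all 12 arrays, so every gene of the set was among the 23205 genes tested. The brighter Rrh probe stood for the gene.

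Eyes were injected into the vitreous with gold particles of 20 nm or 100 nm, silicate particles of 20 nm or 100 nm, or phosphate-buffered saline (PBS). The animals were male C57BL/6 mice, 5 weeks old, with 12 per group, only right eyes were injected, and retinas were collected 7 days later. RNA came from pools of 4 retinas, which gives 3 tubes per group. Each of the 12 arrays, 3 per particle group, set a particle tube in Cy5 against PBS-injected eyes in Cy3. PBS eyes received an injection too, no eyes without an injection were analysed here, and the labels give no particle dose. Neither do they say whether pigment epithelium was kept or removed when the retina was prepared, and a pooled tube does not show the single animal. The arrays lay on 3 slides, numbered like the replicates, with 1 array of each particle group on every slide. The PBS tube of a slide was taken to be shared by its 4 arrays, an assumption, because the labels do not name it. The dyes were never exchanged, so a probe's dye bias enters each ratio against PBS, while it drops out of differences among particle arrays. A log2 ratio is positive where the particle tube was higher. A level is the normalized log2 intensity of 1 dye, and levels of different probes are not compared.

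Light turns the cis form of retinal bound to an opsin into the all-trans form, and the visual cycle turns it back. In the pigment epithelium Lrat joins all-trans retinol to a fatty acid, Rpe65 converts this ester to cis-retinol, and Rdh5 oxidises cis-retinol to cis-retinal. Rlbp1 encodes the protein that carries the cis retinoids, in the pigment epithelium and in Müller glia. Rgr and Rrh encode opsins that are not used for image-forming vision and bind all-trans retinal. Ttr encodes transthyretin, which carries thyroid hormone and the retinol-binding protein, and is made in the eye by pigment epithelium and ciliary epithelium.

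Because the genes moved together across the arrays, as described below, their promoters were searched for 3 short motifs on both strands. These were TAATCC, the core bound by the homeodomain factors Otx2 and Crx, the E-box CACGTG, and CATGTG, the core of the M-box bound by Mitf. The windows run from 250 bases before to 50 bases after the gene start in RefSeq (GRCm38.p6), and 6 of the 7 genes are considered. The 3 promoters that hold a match are printed below, 5′ to 3′ on the gene's strand, with the matches in capitals, which read the motif as given or as its reverse complement GGATTA or CACATG.
Rpe65, chr3:159598931-159599230, plus strand: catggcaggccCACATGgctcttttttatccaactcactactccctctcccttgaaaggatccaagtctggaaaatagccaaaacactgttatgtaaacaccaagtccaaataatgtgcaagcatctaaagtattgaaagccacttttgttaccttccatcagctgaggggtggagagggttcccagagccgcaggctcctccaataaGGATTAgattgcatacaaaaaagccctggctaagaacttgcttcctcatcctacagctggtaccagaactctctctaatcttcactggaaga
Rgr, chr14:37048965-37049264, minus strand: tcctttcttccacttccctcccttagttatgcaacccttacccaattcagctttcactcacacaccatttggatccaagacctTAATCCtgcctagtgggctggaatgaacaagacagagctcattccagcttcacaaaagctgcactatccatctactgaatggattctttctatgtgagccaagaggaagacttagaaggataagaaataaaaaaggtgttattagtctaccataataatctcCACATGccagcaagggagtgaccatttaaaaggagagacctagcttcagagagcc
Rlbp1, chr7:79386978-79387277, minus strand: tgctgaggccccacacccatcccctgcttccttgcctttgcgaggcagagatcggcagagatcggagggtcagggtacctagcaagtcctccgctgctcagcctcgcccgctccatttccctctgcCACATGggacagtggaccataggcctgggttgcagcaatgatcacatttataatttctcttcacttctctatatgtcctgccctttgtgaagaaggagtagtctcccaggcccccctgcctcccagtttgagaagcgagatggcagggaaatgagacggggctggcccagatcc
Rpe65 and Rgr each held an Otx2 and Crx core and an M-box core, and Rlbp1 held an M-box core only. The matches do not overlap. The windows of Lrat, Rdh5 and Rrh held none of the 3 motifs, which says only that these letters are not there. Among 32851 promoters of the same length, 7.06% held the Otx2 and Crx core, 7.15% the E-box and 14.2% the M-box core.

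Against PBS, over all 4 particle groups, 3 of the 7 genes rose. These were Lrat by a log2 ratio of 0.82 ± 0.85 (SD, n = 12, limma adjusted p = 0.0377), Rdh5 by 0.92 ± 0.91 (limma adjusted p = 0.0419) and Rrh by 0.35 ± 0.31 (limma adjusted p = 0.0275). Of all genes tested, 14.8% passed in this comparison, 8.43% as higher, that is 1957 of 3428. With median centring in place of loess, 2591 of the 3413 genes that passed were higher, and 4 members were. Rpe65, Rgr, Ttr and Rlbp1 had means above 0 and did not pass, and none of the 7 was lower. The median over the 7 genes was 0.82, against -0.0074 over all genes tested. In tubes of pooled tissue, more cells of a type and more RNA per cell cannot be told apart. These fits count the 12 arrays as independent, although the arrays of a slide share a PBS tube by the assumption above. With the slide as a random block no member passed, with adjusted p of 0.207 for Lrat, 0.213 for Rdh5 and 0.143 for Rrh, and 1.69% of all genes passed. With the slide as a fixed block, the replicate block, all 7 passed, with adjusted p between 4.91e-05 and 0.00537, and so did 34.9% of all genes. That fit leaves out the spread between the PBS tubes, which is described gene by gene below. No member passed without slide 1, without slide 2 or with the processed signals of the scanner software.

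**Figure D1:**
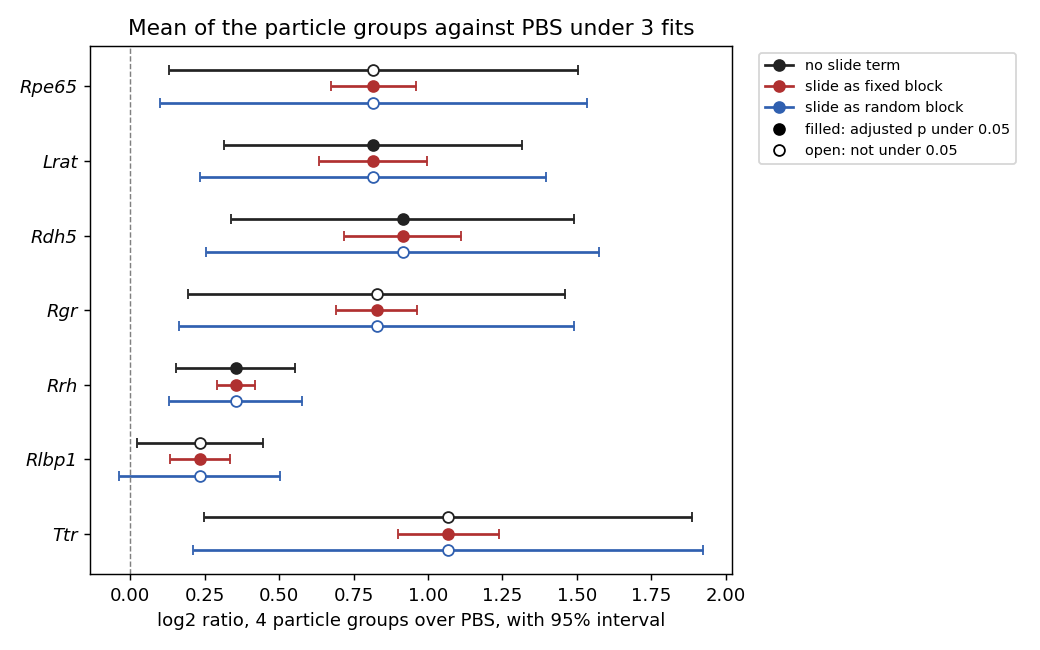
Mean log2 ratio of the 4 particle groups over PBS for each gene, with 95% intervals from 3 limma fits, without a slide term, with the slide as a fixed block and with the slide as a random block. Filled points have an adjusted p under 0.05, which are Lrat, Rdh5 and Rrh without a slide term, all 7 genes with the fixed block and none with the random block.

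Lrat makes the retinyl esters on which the cycle draws. Lrat levels were 8.50, 9.26 and 9.28 in gold 20 nm tubes on slides 1, 2 and 3, and 9.95, 10.09 and 9.86 in gold 100 nm tubes. They were 9.08, 9.42 and 9.27 with silicate 20 nm and 9.08, 8.79 and 9.27 with silicate 100 nm. PBS tubes, as means of 4 arrays, had 7.53, 8.59 and 9.40. The 3 gold 100 nm tubes stood above all 9 other particle tubes, and the PBS tubes differed from each other more than the particle tubes did. The log2 ratios of Lrat were 0.87, 0.67 and -0.22 with gold 20 nm, 2.47, 1.68 and 0.46 with gold 100 nm, 1.58, 0.74 and -0.030 with silicate 20 nm, and 1.58, 0.11 and -0.14 with silicate 100 nm. Lrat was higher in the particle tube on 9 of 12 arrays, with all 3 exceptions on slide 3.

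Rpe65 is the isomerase of the cycle. Rpe65 levels were 11.34, 12.13 and 12.11 in gold 20 nm tubes on slides 1, 2 and 3, and 12.79, 13.08 and 13.02 in gold 100 nm tubes. The silicate 20 nm tubes held 11.94, 11.97 and 12.07, and the silicate 100 nm tubes 11.76, 11.61 and 12.19. In the PBS tubes the level of Rpe65 was 9.91, 11.55 and 12.59. Every gold 100 nm tube was above every other particle tube, and PBS was lowest of all on slide 1 and above all but the gold 100 nm tube on slide 3. The log2 ratios of Rpe65 were 1.43, 0.56 and -0.50 with gold 20 nm, 2.81, 1.50 and 0.37 with gold 100 nm, 2.06, 0.47 and -0.46 with silicate 20 nm, and 1.89, 0.048 and -0.37 with silicate 100 nm. Over 12 arrays the mean was 0.82 ± 1.10, above 0 on 9 arrays, and did not pass (limma adjusted p = 0.106).

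Rdh5 is the cis-retinol dehydrogenase. Rdh5 levels were 12.69, 13.33 and 12.78 in gold 20 nm tubes on slides 1, 2 and 3, and 13.97, 14.06 and 13.60 in gold 100 nm tubes. Silicate 20 nm tubes gave 13.66, 13.35 and 13.72, and silicate 100 nm tubes 13.10, 12.91 and 13.60. PBS tubes gave 11.43, 12.67 and 13.35. The gold 100 nm tubes overlapped with the silicate 20 nm tubes here, and the PBS tube of slide 1 was below every particle tube. As ratios to PBS on the log2 scale, Rdh5 had 1.32, 0.68 and -0.50 with gold 20 nm, 2.51, 1.39 and 0.19 with gold 100 nm, 2.22, 0.71 and 0.39 with silicate 20 nm, and 1.64, 0.19 and 0.24 with silicate 100 nm. The particle tube was higher on 11 of 12 arrays, all but that of gold 20 nm on slide 3.

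Rgr encodes a retinal-binding opsin of pigment epithelium and Müller glia. Rgr levels were 11.47, 12.15 and 12.17 in gold 20 nm tubes on slides 1, 2 and 3, and 12.39, 13.11 and 13.07 in gold 100 nm tubes. They were 12.00, 12.49 and 12.38 with silicate 20 nm and 11.92, 11.88 and 11.82 with silicate 100 nm. The PBS level was 10.01 on slide 1, 11.67 on slide 2 and 12.54 on slide 3, with 9.59 to 10.25 over the 4 arrays of slide 1. The gold 100 nm tube was highest on every slide, and its value on slide 1 lay within the range of the silicate 20 nm tubes. The log2 ratios of Rgr were 1.22, 0.48 and -0.38 with gold 20 nm, 2.81, 1.40 and 0.46 with gold 100 nm, 1.89, 0.84 and -0.091 with silicate 20 nm, and 1.80, 0.23 and -0.72 with silicate 100 nm. The mean of 0.83 ± 1.04 over 12 arrays did not pass (limma adjusted p = 0.0795).

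Rrh encodes peropsin, an opsin of the microvilli of pigment epithelium cells. Rrh levels spanned a narrower range, with 11.35, 11.55 and 11.75 in gold 20 nm tubes on slides 1, 2 and 3, and 11.77, 11.77 and 11.88 in gold 100 nm tubes. Silicate 20 nm tubes had 11.55, 11.74 and 11.57, silicate 100 nm tubes 11.44, 11.51 and 11.42, and PBS tubes 10.81, 11.40 and 11.55. By this brighter probe the gold 100 nm tubes were again above all 9 other particle tubes, with a gap that begins at 11.77 against 11.75. By the dimmer probe they overlapped, with 9.037 for gold 100 nm on slide 1 against 9.044 for gold 20 nm on slide 3. For Rrh the log2 ratios came to 0.51, 0.16 and 0.15 with gold 20 nm, 0.97, 0.46 and 0.26 with gold 100 nm, 0.78, 0.23 and 0.097 with silicate 20 nm, and 0.62, 0.10 and -0.082 with silicate 100 nm. The second probe of Rrh had a mean log2 ratio of 0.37 ± 0.32, above 0 on 11 arrays as the first was. Tested as a probe of its own it passed, with limma adjusted p = 0.0238.

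Rlbp1 encodes the carrier of cis retinoids. Rlbp1 levels were 14.01, 13.93 and 14.49 in gold 20 nm tubes on slides 1, 2 and 3, and 14.39, 14.48 and 14.49 in gold 100 nm tubes. They were 14.10, 14.25 and 14.04 with silicate 20 nm and 14.05, 14.21 and 14.06 with silicate 100 nm. PBS tubes had 13.55, 14.26 and 14.12. Only the PBS tube of slide 1 stood apart from the other tubes. Rlbp1 had log2 ratios of 0.48, -0.28 and 0.36 with gold 20 nm, 0.81, 0.18 and 0.36 with gold 100 nm, 0.56, 0.028 and -0.078 with silicate 20 nm, and 0.51, -0.088 and -0.034 with silicate 100 nm. Their mean of 0.23 ± 0.33 was the smallest of the 7 and did not pass (limma adjusted p = 0.128).

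Ttr encodes the hormone and retinol carrier. Ttr levels were 13.89, 14.48 and 13.94 in gold 20 nm tubes on slides 1, 2 and 3, and 15.02, 15.20 and 14.63 in gold 100 nm tubes. Silicate 20 nm tubes gave 14.97, 14.44 and 14.41, and silicate 100 nm tubes 14.02, 14.00 and 14.14. The PBS tubes ran from 11.89 on slide 1 through 13.81 on slide 2 to 14.38 on slide 3. On slides 1 and 2 every particle tube was above PBS, and on slide 3 the gold 20 nm and silicate 100 nm tubes were below it. Its log2 ratios to PBS came to 1.99, 0.74 and -0.44 with gold 20 nm, 3.05, 1.36 and 0.26 with gold 100 nm, 3.12, 0.66 and 0.067 with silicate 20 nm, and 2.17, 0.12 and -0.28 with silicate 100 nm. The mean of 1.07 ± 1.25 was the largest of the 7 and did not pass (limma adjusted p = 0.0805).

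**Figure D2:**
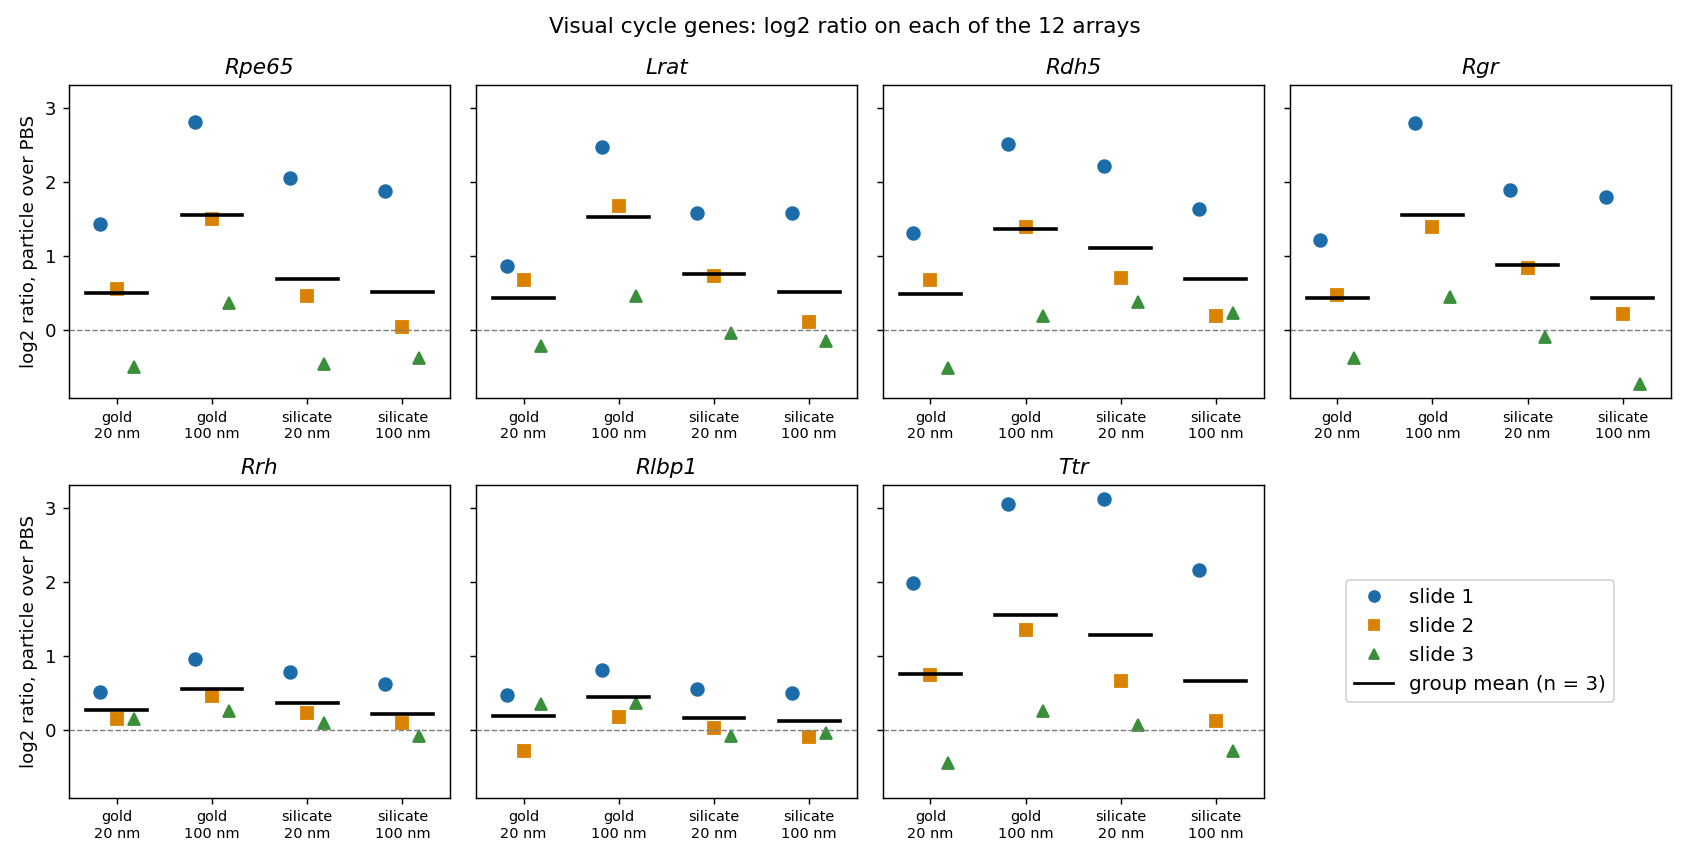
Log2 ratio of particle over PBS for each of the 7 genes on each of the 12 arrays, by particle group, with colour and shape for the slide and a bar for the group mean (n = 3). The slide 1 arrays are above 0 in every panel, between 0.48 and 3.12, and the slide 3 arrays lie between -0.72 and 0.46.

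The ratios followed the slide. On slide 1 all 7 genes had ratios above 0 on all 4 arrays, a pattern that 31.5% of all genes shared. The median ratio of the 7 genes on slide 1 was 1.22 with gold and 1.89 with silicate at 20 nm, and 2.51 with gold and 1.64 with silicate at 100 nm. On slide 2 it was 0.56 and 0.66 with gold and silicate at 20 nm, and 1.39 and 0.11 at 100 nm. On slide 3 it was -0.38 and -0.030 at 20 nm, and 0.36 and -0.14 at 100 nm. Gold 100 nm was the group in which all 7 genes were above 0 on every slide, a pattern not counted over all genes.

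The level differed more among the 3 PBS tubes than among the 12 particle tubes. The lowest and highest PBS tube differed by 2.68 log2 units for Rpe65, against 1.74 over the 12 particle tubes, and the PBS range was the larger for each of the 7 genes. It was 1.87 for Lrat, 1.92 for Rdh5, 2.53 for Rgr, 0.74 for Rrh, 0.71 for Rlbp1 and 2.49 for Ttr. The share of all genes with the larger range in PBS tubes was not counted. Over all genes the median of the PBS range was 0.313, and 7.77% of genes exceeded 1, as 5 of the 7 did. Those 5, Rpe65, Lrat, Rdh5, Rgr and Ttr, had PBS levels that were higher on slide 2 than on slide 1 and higher on slide 3 than on slide 2 on all arrays, a pattern of 4.82% of all genes. For all 7 the PBS level of slide 1 was below that of slides 2 and 3 on every array, as for 27.9% of all genes.

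**Figure D3:**
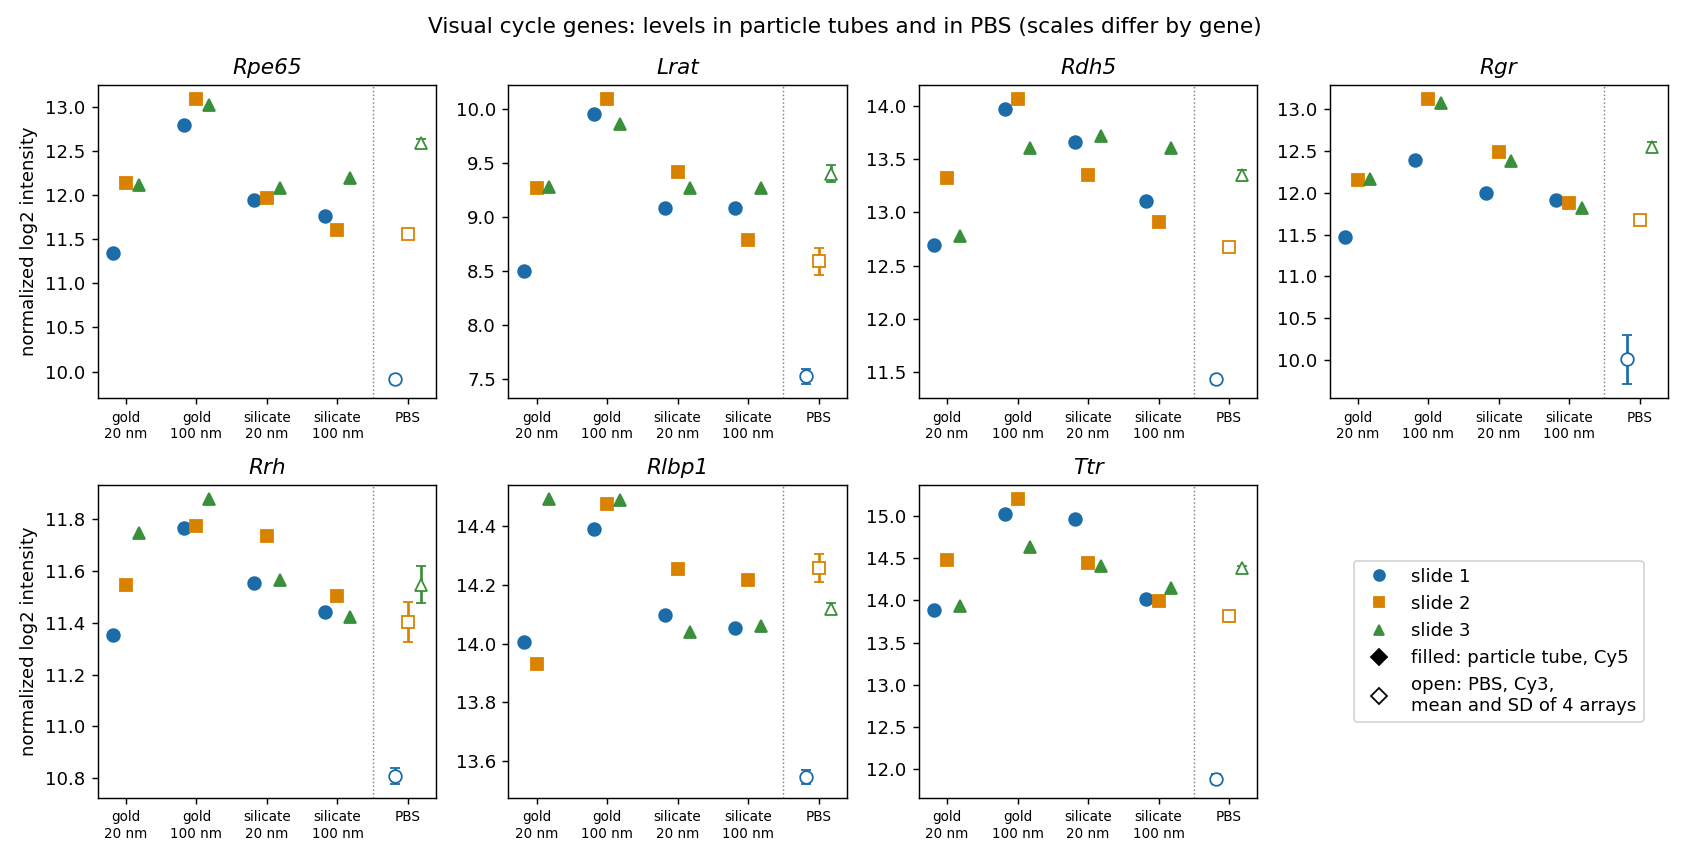
Normalized log2 intensity of each gene, on its own scale, in the particle tubes (filled, Cy5) and in the PBS tubes (open, Cy3, mean and SD of the 4 arrays of a slide), by group and slide. The open points spread more widely than the filled ones in every panel, from 9.91 to 12.59 for Rpe65, and the gold 100 nm tubes have the highest mean level for each gene.

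Among the particle tubes, gold 100 nm had the highest mean level for each of the 7 genes. For Rpe65 it was 12.96 ± 0.15 (SD, n = 3), against 12.00 ± 0.070 with silicate 20 nm, 11.86 ± 0.45 with gold 20 nm and 11.85 ± 0.30 with silicate 100 nm. PBS had the lowest mean for every gene, with 11.35 ± 1.35 for Rpe65, though in the other dye. The 3 gold 100 nm tubes stood above all 9 other particle tubes for Rpe65, Lrat and Rrh, 3 of the 7, against 0.242% of all genes. For Rrh this held for the brighter probe and not for the dimmer one. Below gold 100 nm, neighbours in the order overlapped in every case for all 7 genes, and for Rdh5, Rgr, Rlbp1 and Ttr the gold 100 nm tubes overlapped with the next group too. The gold 100 nm tube was the highest of its slide on all 3 slides for Rpe65, Lrat, Rgr, Rrh and Ttr, and on 2 slides for Rdh5 and Rlbp1. The share of all genes with this order, or with these highest and lowest means, was not counted. Each group also kept 1 position on all slides, and effects of position and of group cannot be told apart.

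Each particle group was also tested alone against PBS, and no gene of the set passed in any of the 4 tests. With gold 100 nm the mean log2 ratios were 1.56 ± 1.22 for Rpe65, 1.54 ± 1.01 for Lrat, 1.37 ± 1.16 for Rdh5 and 1.55 ± 1.18 for Rgr (SD, n = 3). They were 0.56 ± 0.36 for Rrh, 0.45 ± 0.32 for Rlbp1 and 1.56 ± 1.41 for Ttr, and limma adjusted p lay between 0.179 and 0.448. The unadjusted p was under 0.05 for 6 of these 7, all but Ttr, as it was for 12.1% of all genes. After adjustment 0.978% of all genes passed. With silicate 20 nm the means were 0.69, 0.76, 1.11, 0.88, 0.37, 0.17 and 1.28 in the same order of genes, with adjusted p from 0.345 to 0.77, where 2.08% of all genes passed. Gold 20 nm gave means of 0.19 for Rlbp1 to 0.76 for Ttr, with adjusted p from 0.742 to 0.847, where 0.694% of all genes passed. Silicate 100 nm gave means of 0.13 for Rlbp1 to 0.69 for Rdh5, with adjusted p from 0.729 to 0.914, where 0.987% of all genes passed. In these other 3 groups no member had an unadjusted p under 0.05. With the replicate block 7 members passed with gold 100 nm, 6 with silicate 20 nm, 2 with gold 20 nm and 1 with silicate 100 nm, beside 6.73%, 8.77%, 4.47% and 4.04% of all genes. With the slide as a random block no member passed in any single group, beside 0.677%, 1.24%, 0.534% and 0.823% of all genes in the same order.

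Gold and silicate were set against each other within the same fit, where the dye effect cancels. Differences of the log2 ratio, gold minus silicate, were 0.42 for Rpe65 (95% interval -0.95 to 1.80), 0.35 for Lrat (-0.65 to 1.35), 0.033 for Rdh5 (-1.12 to 1.18) and 0.34 for Rgr (-0.93 to 1.61). They were 0.12 for Rrh, 0.17 for Rlbp1 and 0.18 for Ttr. Limma adjusted p was 0.882 to 0.993, no member had an unadjusted p under 0.05, and 0% of all genes passed, with 1204 at an unadjusted p under 0.05. With the slide as a random block 0.0646% of all genes passed, and again no member. Within slides, the difference for Rpe65 was 0.15, 0.77 and 0.35 on slides 1, 2 and 3, and for Rdh5 -0.017, 0.58 and -0.47. Rpe65, Lrat, Rgr and the brighter Rrh probe had differences above 0 on all 3 slides, a pattern not counted over all genes. The intervals above come from the fit without a slide term. With the replicate block, which compares arrays of the same slide, they were 0.14 to 0.71 for Rpe65, -0.013 to 0.71 for Lrat, -0.36 to 0.43 for Rdh5, 0.068 to 0.61 for Rgr and -0.15 to 0.52 for Ttr. In that fit the unadjusted p was 0.00891 for Rpe65 and 0.0204 for Rgr, with limma adjusted p of 0.244 and 0.28. The share of all genes with an unadjusted p under 0.05 in that fit was not counted.

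Size was compared in the same way. The difference of 100 nm minus 20 nm over both materials was 0.45 for Rpe65 (95% interval -0.93 to 1.82) and between 0.066 for Rrh and 0.42 for Lrat in the other members, with limma adjusted p of 1 for all 7. No member had an unadjusted p under 0.05, and 0% of all genes passed, with 230 at an unadjusted p under 0.05. The size difference ran in opposite directions in the materials. With gold, the difference of 100 nm minus 20 nm for Lrat was 1.60, 1.00 and 0.68 on slides 1, 2 and 3, and with silicate it was -0.0045, -0.63 and -0.11. For Ttr it was 1.06, 0.61 and 0.70 with gold, and -0.95, -0.54 and -0.35 with silicate. The gold difference was above 0 on all 3 slides for each of the 7 genes, from 0.0053 for Rlbp1 on slide 3 to 1.60 for Lrat on slide 1. How many of all genes had such gold differences was not counted. Lrat, Rdh5, Rgr, Rrh and Ttr also had silicate differences below 0 on all 3 slides, 5 of the 7, against 1.35% of all genes. Rpe65 was the exception on slide 3, at 0.084 with silicate, and Rlbp1 too, at 0.044. Some other lists had these signs in their group means, a looser count than that by slide, and the lens list did not. Over all 23205 genes tested, 11166 group means were above 0 with gold and 11480 with silicate. Of the 8 genes of ciliary epithelium and vitreous secretion, 8 were above 0 with gold, with a median of 0.96, and 0 with silicate, with a median of -0.81. Of the 16 other pigment epithelium genes, 16 were above 0 with gold, with a median of 0.40, and 1 with silicate, with a median of -0.34. Of the 18 lens genes, 18 were above 0 with gold, with a median of 1.41, and 17 with silicate, with a median of 1.16. The part of these lists in the size differences of the 7 genes was not tested.

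The difference between the materials in this size difference did not pass for any member. It was 1.23 for Rpe65 (95% interval -1.52 to 3.98), 1.34 for Lrat (-0.65 to 3.34), 1.28 for Rdh5 (-1.02 to 3.59), 1.56 for Rgr (-0.98 to 4.09) and 1.41 for Ttr (-1.87 to 4.69). It was 0.45 for Rrh and 0.30 for Rlbp1, and limma adjusted p was 1 for all 7. In this fit without a slide term no member had an unadjusted p under 0.05, and 142 genes of all had one. With the replicate block the unadjusted p was 0.000156 to 0.00544 for the 6 genes other than Rlbp1, with intervals of 0.66 to 1.80 for Rpe65 and 0.62 to 2.07 for Lrat, and the adjusted p was 1 for all 7 in that fit too. How many of all genes had an unadjusted p under 0.05 with the replicate block was not counted. In tests chosen and added after the values were seen, gold 100 nm minus gold 20 nm was 1.06 for Rpe65, 1.09 for Lrat and 1.11 for Rgr, each with an adjusted p of 1, and silicate 100 nm minus silicate 20 nm was -0.17, -0.25 and -0.44, each with an adjusted p of 1. No member and no gene of the array passed in these tests, with or without the replicate block.

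**Figure D4:**
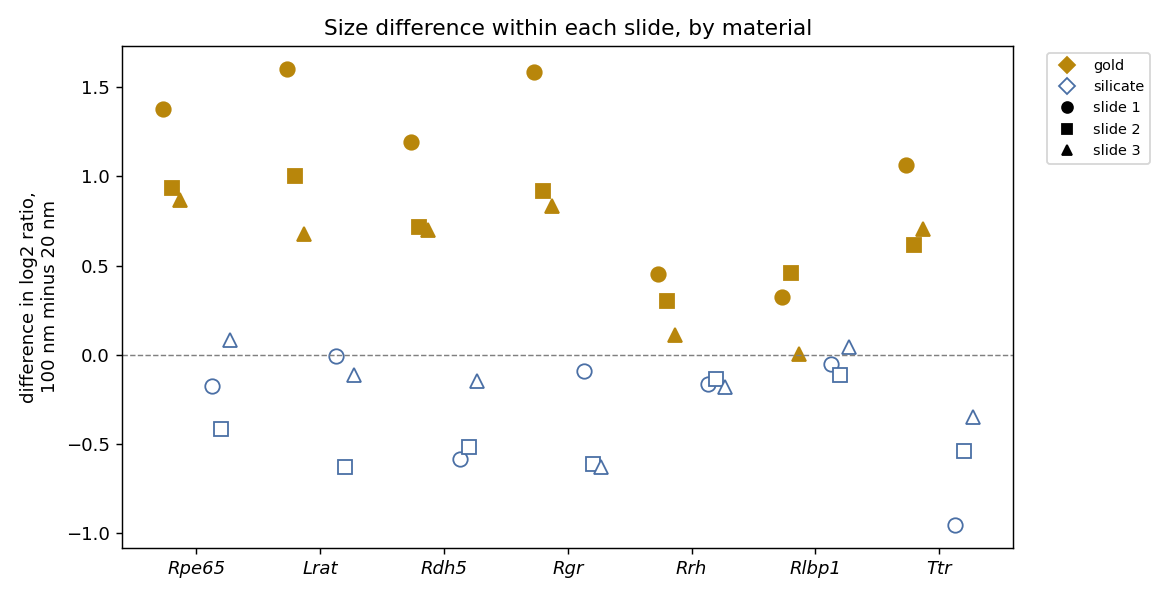
Difference in log2 ratio between the 100 nm and the 20 nm array of the same slide, for gold (filled) and silicate (open), by gene and slide. The gold points are all above 0, between 0.0053 and 1.60, and 19 of the 21 silicate points are below 0.

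Other genes of retinoid handling did not move as a set. Of the 30 on the list that the array holds, 25 were tested in the comparison of all particles with PBS, 2 rose and 2 fell, and the median was 0.043. Stra6, the receptor that takes up retinol from its binding protein, rose by 0.64 ± 0.50 (SD, n = 12, limma adjusted p = 0.0123). Rdh13, a retinol dehydrogenase of mitochondria, rose by 0.17 ± 0.11 (limma adjusted p = 0.00717). Rbp4, the retinol-binding protein of plasma, had a log2 ratio of -0.24 ± 0.19 (limma adjusted p = 0.0289), and Rdh11, a retinal reductase of photoreceptors, one of -0.17 ± 0.14 (limma adjusted p = 0.0262). None of the 4 passed with the slide as a random block, with adjusted p of 0.143, 0.252, 0.165 and 0.464 in the order given.

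Other genes of the pigment epithelium, read as a list, also had a median above 0 with all particles against PBS. That list median parted from the one of the visual cycle genes on the silicate arrays of slide 3. Of 17 on the array, 16 were tested, 9 rose, none fell, and the median log2 ratio was 0.74. Slc16a8, Kcnj13, Mitf, Slc45a2, Serpinf1, Slc6a20a and Mertk did not pass. On the silicate arrays of slide 3 the medians of the 16 genes were 0.77 at 20 nm and 1.28 at 100 nm. Those of the visual cycle genes were -0.030 and -0.14. Not every gene of the list parted in this way. The log2 ratios of Slc16a8 followed the mean of the 7 visual cycle genes, with a Pearson correlation of 0.9704 over the arrays. Gold minus silicate was above 0 for 7 of these 16 genes, with a median of -0.10, and for 7 of 7 visual cycle genes, with a median of 0.18. No gene of either list passed. Over all genes tested it was above 0 for 10262 of 23205. It was also above 0 for 16 of 16 rod genes, with a median of 0.46, and for 0 of 18 lens genes. Without the 2 silicate arrays of replicate 3 it was below 0 for Rpe65, Lrat, Rdh5, Rgr, Rrh and Ttr. Against PBS, the largest of the 16 were Dct at 2.28 ± 1.97 and Tyrp1 at 2.22 ± 1.57 (SD, n = 12, limma adjusted p = 0.0321 and 0.0133). Both encode enzymes of melanin synthesis. Mlana and Pmel, proteins of the melanosome, stood at 1.98 ± 1.52 and 1.68 ± 1.53 (limma adjusted p = 0.0202 and 0.0359). None of these 9 passed with the random block, none passed without slide 1, and 1 passed without slide 2. Best1, an anion channel of the pigment epithelium, was well above background on no array. Melanin genes are shared with melanocytes. A summed level adds normalized intensities on the linear scale, so the brightest probes weigh most. For the 16 genes it ran from 14698 to 101823 in gold 20 nm tubes and from 23713 to 81377 with gold 100 nm. It ran from 37153 to 45295 with silicate 20 nm and from 13416 to 71040 with silicate 100 nm. In PBS tubes it was 7085, 10637 and 28050 on slides 1, 2 and 3. Over the 7 visual cycle genes, the summed level was 82378 to 99711 in gold 100 nm tubes and 46626 to 74067 in the other particle tubes. In the PBS tubes it was 22534, 49839 and 65328. The bright probes of Ttr and Rlbp1 weigh most in this sum, so it does not speak for each of the 7 genes.

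Marker lists of other cells were read beside these values. These lists were chosen with earlier results of these data known. A count of risen genes, as in the ciliary and vitreous list, is therefore no independent support. Of 8 genes of ciliary epithelium and vitreous secretion, 7 rose, with a median of 2.17, led by Optc, the vitreous protein opticin, at 2.87 ± 1.13 (SD, n = 12, limma adjusted p = 0.000291). The list also holds Fbln1, Gpx3 and Penk at 2.50, 2.28 and 2.25, and none of the 7 passed with the random block. Its summed level was 41726 to 43005 in gold 100 nm tubes, 24641 to 28387 with gold 20 nm, 25349 to 48151 with silicate 20 nm and 22344 to 40011 with silicate 100 nm, against 14213, 18877 and 20421 in the PBS tubes. All 16 rod genes were well above background in both dyes on all arrays, and 1 of them, Prph2, passed as higher. Of 14 Müller glia genes 3 rose, Dkk3 by 0.48, Clu by 0.47 and Aqp4, a water channel, by 0.42, with a list median of 0.14. Of 10 cone genes Pde6h passed as lower at -0.21, of 11 ganglion cell genes Slc17a6 passed as higher at 0.49, and of 4 blood genes Alas2 and Slc4a1 passed as lower at -0.73 and -0.28. None of 18 lens genes and none of 11 genes of choroid, vessels and stroma passed in limma. With the slide as a random block no gene of the rod, Müller glia, cone, ganglion cell or blood lists passed. The adjusted p was then 0.295 for Prph2, 0.147 for Dkk3, 0.519 for Clu and 0.315 for Aqp4. For Pde6h it was 0.427, for Slc17a6 0.18, for Alas2 0.251 and for Slc4a1 0.0816. Of 17 macrophage and microglia genes none passed, with a median of -0.17, and their medians by array were -2.50, -3.11, -1.94 and -2.50 on slide 1, 1.02, 0.51, 0.38 and 0.23 on slide 2, and -0.43, -0.71, 3.30 and 3.54 on slide 3. Their summed level in the PBS tubes was 270334, 45705 and 56165 on slides 1, 2 and 3. The PBS tube with the highest sum was the one in which all 7 visual cycle genes were lowest. The part of ciliary tissue, of macrophages and of the amount of pigment epithelium in the ratios of the 7 genes was not tested.

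**Figure D5:**
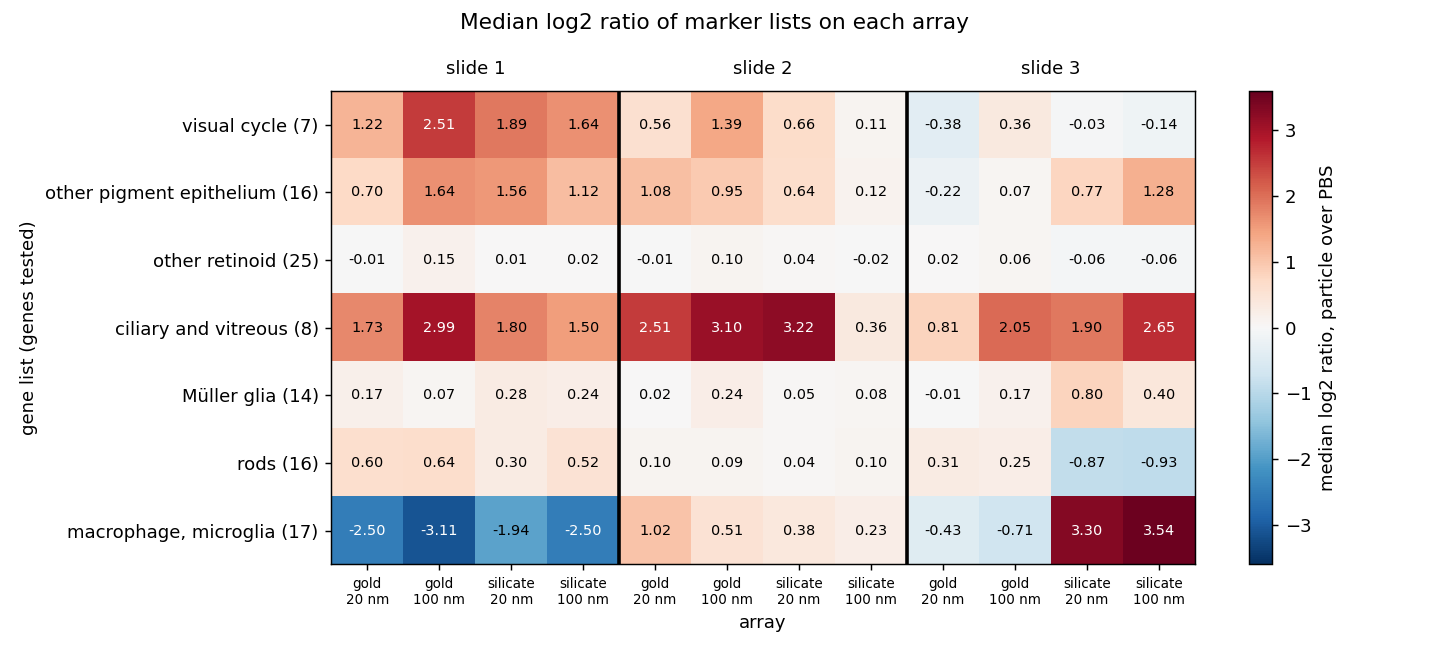
Median log2 ratio of particle over PBS for the visual cycle genes and 6 other lists on each array, with the number of genes tested in brackets. Visual cycle and other pigment epithelium genes are above 0 on slides 1 and 2, while on the silicate arrays of slide 3 the other pigment epithelium genes are at 0.77 and 1.28 and the visual cycle genes at -0.030 and -0.14. The other retinoid genes stay between -0.06 and 0.15, and the macrophage list has medians below 0 on slide 1 and above 3 on the silicate arrays of slide 3.

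The log2 ratios of the members varied together. Pearson correlations over the 12 arrays, which share 3 PBS tubes, were 0.914 to 0.98 among Rpe65, Lrat, Rdh5, Rgr, Rrh and Ttr, and 0.638 to 0.85 between Rlbp1 and these 6. Particle levels are not ratios to PBS, but both dyes of an array were normalized together, so the PBS tube is not wholly absent from them. In these levels Rpe65 correlated with Lrat at 0.968 and with Rgr at 0.88, and Rdh5 with Rrh at 0.462. Outside the set, the gene most like the mean of the 7 was Enpp2, at 0.9813 for the ratio and 0.9308 for the particle level, followed by Gm525, Slc16a8, Car12 and Rab27b at 0.9759 to 0.9594. Enpp2 was the most alike for Rpe65 (0.9918), Lrat (0.9678) and Rgr (0.964). Rdh5 was most like Car12 (0.9944), Ttr most like Fam13a (0.9741), Rrh most like Gm525 (0.9598) and Rlbp1 most like Fgf1 (0.9412). Lrat was next followed by Sox10 and Kcnj13, Rdh5 by Slc16a8 and Pon1, and Rrh by Rab27b and Slco1a4. Rlbp1 was followed by Tekt1 and Igfbpl1, whose particle levels correlated with its own at only 0.5289 and 0.2324. Slc16a8 and Kcnj13 also stand on the list of other pigment epithelium genes.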

How the data were processed

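Retinal RNA was measured on 12 two-colour arrays. The deposited scanner files hold intensity per spot, and the scanner software was Feature Extraction (Agilent), version 11.0.1.1 in the headers and 9.3.2.1 in the submitters' processing notes. Median foreground and background intensity were used from these deposited columns. The deposited log10 ratio of Cy5 to Cy3 served only to read the scale of the deposited value table, which holds log2 ratios by slopes of 3.299 to 3.318 against it and correlations across probes of 0.9411 to 0.9945. Its column medians were 0.01627 to 0.1139, and its centring stays unknown. It was used as an alternative.

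Background was corrected by normexp (offset 50), arrays were loess-normalized with the 1377 control spots at weight 0, 149 to 257 spots an array flagged as outliers were dropped, and saturation was absent. Single-dye levels came after Aquantile scaling between arrays. Spots of a probe were averaged. Of 32334 probes with a RefSeq-type name, 26055 received a symbol through the RefSeq table of GRCm38.p6 (only names were taken, since the headers give mm9 as the arrays' build). A probe was kept if well above background in a dye on all 3 arrays of a group, which left 28427 probes, and the brightest stood for its gene. Tests were limma's lmFit and eBayes (limma 3.58.1, R 4.3.3), two-sided, on 4 group means, with p-values adjusted by Benjamini-Hochberg across the genes tested and called under 0.05. The scripts were tested on simulated data in which all arrays were independent. That check does not cover arrays that vary together within a slide. The number of arrays limits the precision, and p-values rest on the spread between arrays of pooled tubes, not between animals. Without a slide term, arrays taken to share a PBS tube count as independent. The replicate block leaves out the spread between PBS tubes. All alternatives are described in the closing section.

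Replicate numbers equal slides per the file headers, and same-slide arrays deviated together, with correlations across genes of 0.888 to 0.934, 0.0806 to 0.83 and 0.553 to 0.919 on slides 1, 2 and 3. The labels write particle sizes with the unit nM in the annotation and as diameters in nm in the growth protocol, which was followed. Members and lists were chosen with earlier results of these data known. All members are named, from each other list up to 4 genes that passed with all particles by largest log2 ratio, or else up to 2 as values, and by likeness the 3 most correlated genes of each member and 5 of their mean.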

Additional observations from a re-analysis of the deposited data

Results flagged for a closer look

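Lrat, Rdh5, Rgr, Rrh and Ttr stood out because the difference between 100 nm and 20 nm arrays ran in opposite directions with gold and with silicate on each of the 3 slides. The size difference with gold minus that with silicate was 1.34 log2 units for Lrat, 1.28 for Rdh5, 1.56 for Rgr, 0.45 for Rrh and 1.41 for Ttr. The difference was tested as an interaction in limma and did not pass for any of them, with an adjusted p of 1 for all 5, with and without the replicate block. The 5 genes are not separate evidence, since their ratios correlate across the same 12 arrays at 0.914 to 0.974. In group means, 8 of 8 ciliary and vitreous genes were above 0 with gold and 0 with silicate, and 16 and 1 of the 16 other pigment epithelium genes were. Of 18 lens genes, 18 were above 0 with gold and 17 with silicate. Over all 23205 genes tested, 11166 group means were above 0 with gold and 11480 with silicate. The signs of the 5 genes on every slide, a stricter count than that of group means, were shared by 1.35% of all genes.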

How the results depend on the processing

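Each comparison was repeated under up to 13 other settings. With all particles against PBS, 3 members passed. The count was 7 with the replicate block, 0 with the slide as a random block, 0 with processed signals, and 0 to 3 without a replicate, namely 0 without slide 1, 0 without slide 2 and 3 without slide 3, and 4 without the 2 silicate arrays of replicate 3. For single groups against PBS, where no member passed, the replicate block called 2 with gold 20 nm, 7 with gold 100 nm, 6 with silicate 20 nm and 1 with silicate 100 nm, and it changed no call between particle groups. The estimated correlation within slides was 0.494. The count of all genes with all particles against PBS was 3428, and 8088 with the replicate block, 393 with the random block, 2175 with processed signals, and 960, 267 and 2110 without slides 1, 2 and 3. For single groups, gold at 20 nm and at 100 nm and then silicate at 20 nm and at 100 nm, 161, 227, 482 and 229 genes passed, against 1037, 1561, 2036 and 938 with the replicate block and 349, 421, 519 and 478 with median centring. Leaving out a slide gave 8 to 54, 4 to 34, 8 to 176 and 7 to 43, and fitting only the 3 arrays of the group gave 0 in each. Silicate 20 nm also gave 239 with processed signals, 288 with the random block, 318 with the deposited value table and 222 without its array of replicate 3, where silicate 100 nm gave 129. Gold minus silicate gave 0 genes, and 15 with the random block.

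Without the 2 silicate arrays of replicate 3, gold minus silicate turned to -0.086 for Rpe65, -0.013 for Lrat, -0.26 for Rdh5, -0.19 for Rgr, -0.018 for Rrh and -0.36 for Ttr. This setting keeps the gold arrays of slide 3 in a fit without a slide term, so its groups no longer cover the same slides. Within slides 1 and 2 the difference was 0.15 and 0.77 for Rpe65 and 0.090 and 0.75 for Lrat. It was 0.17 and 0.41 for Rgr and 0.036 and 0.14 for Rrh. For Rdh5 and Ttr it was below 0 on slide 1, at -0.017 and -0.12, and 0.58 and 0.66 on slide 2. Leaving out a slide, gold minus silicate ranged over 0.25 to 0.56 for Rpe65, 0.15 to 0.48 for Lrat, -0.24 to 0.28 for Rdh5, 0.29 to 0.43 for Rgr, 0.088 to 0.17 for Rrh and -0.053 to 0.34 for Ttr, below 0 only without slide 2. Silicate 100 nm against PBS ranged over -0.16 to 0.97 for Rpe65, -0.016 to 0.85 for Lrat, -0.25 to 1.01 for Rgr, -0.061 to 0.24 for Rlbp1 and -0.082 to 1.14 for Ttr, and silicate 20 nm against PBS over -0.025 to 0.29 for Rlbp1, below 0 only without slide 1. Median centring gave 0.049 for Rlbp1 in silicate 100 nm minus silicate 20 nm. Leaving out a slide, the macrophage genes ranged from -1.49 to 0.64 for Ptprc and from -1.75 to 1.21 for Fcer1g, against -0.57 and -0.53 with all slides, and both were above 0 only without slide 1. None of the values that turned sign passed before or after. The cause of these turns was not tested, nor was the part of the uneven slides in that of gold minus silicate. Among values of single members in the planned comparisons, 649 kept direction and side of the threshold, 23 passed where they had not, 14 no longer passed and 14 turned sign. The spread between 3 PBS tubes limits every ratio to PBS. The 7 genes were above background on all arrays, so dimness does not limit them.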
